A study of Rattus norvegicus with 16 samples.

Results

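Transcripts of 3 enzyme genes were followed in primary rat microglia given lipopolysaccharide, apolipoprotein A-I or both: Ptgs2 (ENSRNOG00000002525), Ptgs1 (ENSRNOG00000007415) and Arg1 (ENSRNOG00000013304). They were chosen as a set of 4 Ensembl identifiers for enzymes of nitric oxide, arginine and prostaglandin metabolism, of which 3 were analysed among the 30560 genes listed. The identifier given for Nos2, the inducible nitric oxide synthase, was not analysed here. All 3 genes had enough counts to be tested, as did 11902 genes of the whole table. The symbols come with the choice of the identifiers, since the tables list identifiers without names, and the pairing could not be checked because none of the 47357 RefSeq entries used for names carries an Ensembl identifier.

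Microglia, the resident macrophages of the brain, were taken from wild type rats and studied by bulk RNA sequencing at day 12 in vitro. The LPS+ApoA-I group received lipopolysaccharide (LPS), a bacterial outer membrane component, at 100 ng/ml for 20 hours and ApoA-I, the chief apolipoprotein of high-density lipoprotein particles, at 100 ug/ml of medium. The LPS group received LPS alone, the ApoA-I group ApoA-I alone, and the Control group neither. How long ApoA-I was present, and whether it was added before, with or after LPS, is not given here. Each group held 4 libraries; whether they came from distinct cultures or animals is not in the labels, and p-values therefore measure library-to-library spread only, part of which may be technical. Markers of microglia and of other brain cells, and the other genes of both pathways, could not be looked up without gene names, so the cell type rests on the labels. In bulk samples, fewer cells of a type and less RNA per cell cannot be told apart.

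Cyclooxygenases convert arachidonic acid to prostaglandin H2, from which cells make prostaglandins and thromboxane. Ptgs1 encodes the form that many cells make all the time (COX-1), and Ptgs2 the form that macrophages make when they meet bacterial products (COX-2). In rodent brain, resting microglia are known for COX-1, while LPS is a classical inducer of COX-2 in cultured microglia and macrophages. Arg1 encodes arginase 1, which splits arginine into ornithine and urea and so uses the same substrate as nitric oxide synthases; in rodent macrophages it is often read as a marker of the state induced by interleukin 4.

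Libraries held 12304916 to 17262383 estimated counts. Levels are given as CPM (counts relative to the TMM-scaled library total) between libraries, and as TPM (transcript abundance relative to the library, corrected for gene length) between genes. Changes were called by edgeR's quasi-likelihood test at an adjusted p under 0.05 over all tested genes. By that rule 74.7% of genes were called in LPS against Control, 51.4% in LPS+ApoA-I against LPS, 69.4% in LPS+ApoA-I against ApoA-I, 69.6% in LPS+ApoA-I against Control and 4.27% in ApoA-I against Control, so a call as such was common wherever LPS was involved. The scaling set the centre of these changes. The median change of all genes in LPS against Control was -0.04 log2 units with TMM scaling, -0.42 with library totals and -0.37 on log2(TPM + 1), and 48.6%, 25.5% and 23.6% of called genes were higher in the same order. For LPS+ApoA-I against LPS the medians were 0.03, 0.18 and 0.13, with 51.4%, 71.8% and 69.9% higher. In LPS+ApoA-I against ApoA-I they were -0.01, -0.30 and -0.30, with 49.8%, 26.7% and 22.4% higher. In LPS+ApoA-I against Control they were -0.01, -0.24 and -0.25, with 49.4%, 31.2% and 27.8% higher.

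Ptgs2, low in cells without LPS, was among the more abundant transcripts with LPS, and cells given ApoA-I with LPS held 22.05% of the LPS level. Ptgs2 had 577.6, 570.5, 463.6 and 545.9 CPM in the LPS+ApoA-I libraries, against 2457, 2597, 2323 and 2406 CPM in the LPS libraries. It had 13.3, 12.9, 7.10 and 10.5 CPM in the ApoA-I libraries, against 7.21, 11.01, 6.17 and 9.85 CPM in the Control libraries. Every library with LPS thus lay above every library without it, the libraries with LPS and ApoA-I formed a level of their own between, and only ApoA-I and Control libraries overlapped. How often groups separate in this way over all tested genes was not counted, here or below.

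LPS raised Ptgs2 287-fold over Control (95% interval 226 to 366; 2446 ± 115 CPM in LPS and 8.56 ± 2.25 CPM in Control libraries, SD, n = 4 each; 8.17 log2 units with SE 0.17, edgeR adjusted p = 6.76e-21). By log2 change it ranked 47 of the 11902 tested genes, counted from the highest. By TPM, Ptgs2 averaged 712 in LPS libraries and ranked 212 of the 30560 genes listed, against 3.37 TPM and rank 9655 in Control libraries. Over 16 fits that each left out 1 library, the log2 change stayed between 8.03 and 8.31.

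With ApoA-I present, Ptgs2 still responded to LPS, but less. It rose 49.4-fold in LPS+ApoA-I over ApoA-I (95% interval 39.6 to 61.5; 539.4 ± 52.3 CPM with both agents and 10.9 ± 2.85 CPM with ApoA-I alone, SD, n = 4 each; 5.63 log2 units with SE 0.15, edgeR adjusted p = 2.46e-18) and 63.4-fold over Control (log2 fold change 5.99, SE 0.16, edgeR adjusted p = 1.00e-18). Against LPS alone it fell by 2.18 log2 units (SE 0.12, edgeR adjusted p = 1.64e-12), which left 22.05% of the LPS level (95% interval 18.5% to 26.3%). At 173 TPM it ranked 777 of the genes listed in LPS+ApoA-I libraries. The lowest LPS library was 4.02 times the highest LPS+ApoA-I library.

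Without LPS, the change of Ptgs2 with ApoA-I did not pass the test. It was 0.36 log2 units in ApoA-I against Control (95% interval 0.01 to 0.71; unadjusted p = 0.0436, edgeR adjusted p = 0.247), and the groups overlapped. With 1 library left out the change ranged from 0.22, without Control replicate 3, to 0.52, without ApoA-I replicate 3, and the adjusted p ran from 0.0594 to 0.585 over all alternatives. Spread among libraries was wider at this level: the SD was 26.01% of the mean in ApoA-I and 26.3% in Control libraries, against 9.70% in LPS+ApoA-I and 4.70% in LPS libraries. The order of Ptgs2 levels was therefore LPS, LPS+ApoA-I, and then ApoA-I and Control, whose difference did not pass after adjustment over all tested genes.

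**Figure D1:**
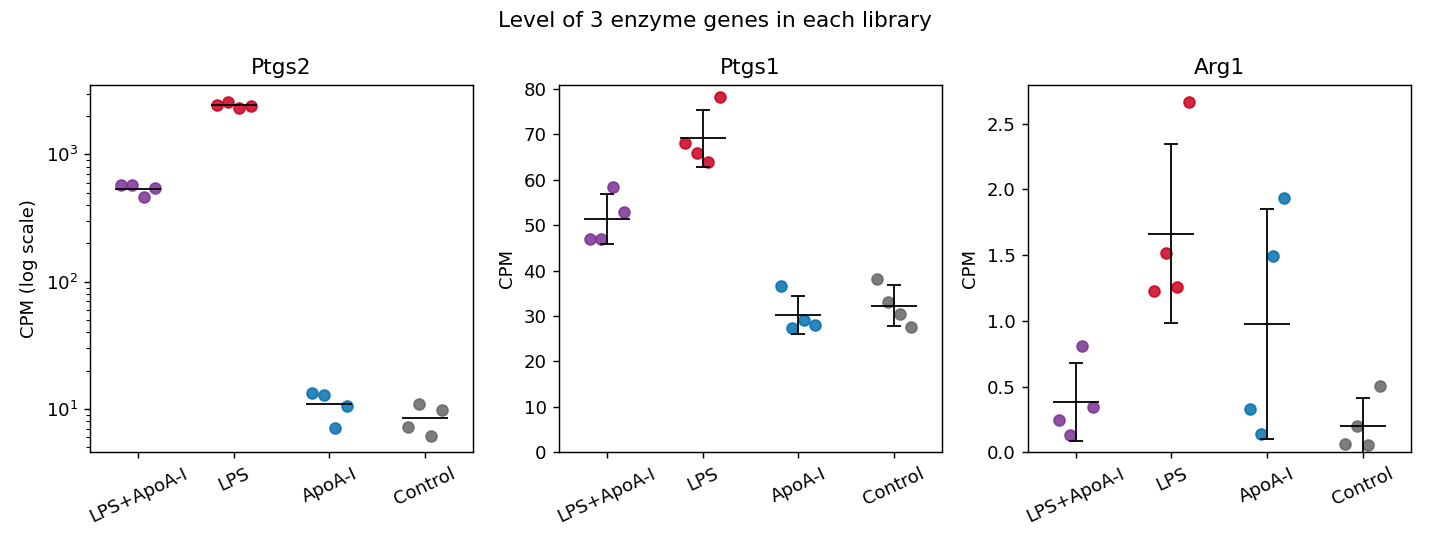
CPM of Ptgs2 (log axis), Ptgs1 and Arg1 (linear axes from 0) in each of the 4 libraries of LPS+ApoA-I, LPS, ApoA-I and Control; points are libraries in replicate order, black lines are means and bars are SD (drawn on the linear axes). Ptgs2 lies between 463.6 and 577.6 CPM with LPS+ApoA-I and between 2323 and 2597 CPM with LPS, while Arg1 stays under 2.67 CPM in every library.

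The sequences before the start sites of both cyclooxygenase genes are shown because the genes encode the same activity and differed in the size of their LPS response. These are the 250 bases upstream of the annotated start, from RefSeq (build GRCr8, plus strand), at chr13:64713813-64714062 for Ptgs2 and chr3:39981169-39981418 for Ptgs1. Capitals mark matches, on either strand, to a C/EBP motif (TTGCNNAA), an E-box (CACGTG) or a GC box (GGGCGG). The motif TATAAA, known as the TATA box, and the kappaB motif were searched too.
Ptgs2: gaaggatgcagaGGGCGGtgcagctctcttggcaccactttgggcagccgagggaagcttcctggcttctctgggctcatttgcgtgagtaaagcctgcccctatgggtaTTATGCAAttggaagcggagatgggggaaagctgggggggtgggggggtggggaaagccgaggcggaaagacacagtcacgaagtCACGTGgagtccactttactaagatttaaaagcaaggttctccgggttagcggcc
Ptgs1: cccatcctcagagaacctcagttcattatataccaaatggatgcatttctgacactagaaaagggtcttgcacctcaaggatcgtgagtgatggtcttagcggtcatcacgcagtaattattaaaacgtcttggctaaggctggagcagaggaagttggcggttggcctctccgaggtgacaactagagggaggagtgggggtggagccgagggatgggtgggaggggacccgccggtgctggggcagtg
The Ptgs2 stretch held 3 matches that did not overlap: a GC box 238 to 233 bases before the start, a C/EBP match on the minus strand 140 to 133 bases before it, and an E-box 55 to 50 bases before it. The Ptgs1 stretch held 0. Among the 33469 promoters in the table, 30.5% held a GC box, 9.22% a C/EBP match, 5.59% an E-box, 12.9% a TATA box and 6.33% a kappaB match. A match describes letters and shows no binding, and a stretch without a match says nothing about the factor. The stretches were close in base composition, with 57.2% G or C and 10 CpG in Ptgs2 and 54.4% and 9 in Ptgs1, against medians of 51.2% and 5 over all promoters. No entry for Arg1 or Nos2 was matched.

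Ptgs1, present in every library at a moderate level, moved in the same directions as Ptgs2 under LPS but by much smaller amounts. It had 46.9, 46.9, 58.5 and 53.0 CPM in the LPS+ApoA-I libraries, against 68.1, 65.9, 63.9 and 78.2 CPM in the LPS libraries. It had 36.5, 27.3, 29.0 and 28.1 CPM in the ApoA-I libraries, against 38.1, 33.0, 30.5 and 27.6 CPM in the Control libraries. In CPM, the groups with LPS lay above those without it and apart from each other, and the groups without LPS overlapped. The lowest LPS library was only 1.09 times the highest LPS+ApoA-I library. In TPM, the LPS+ApoA-I libraries, at 24.3 to 31.5, overlapped every other group. Those groups spanned 29.5 to 40.0 TPM in LPS, 17.4 to 26.2 in ApoA-I and 17.4 to 24.85 in Control libraries.

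LPS raised Ptgs1 2.14-fold over Control (95% interval 1.85 to 2.48; 69.0 ± 6.35 CPM in LPS and 32.3 ± 4.46 CPM in Control libraries, SD, n = 4 each; 1.10 log2 units with SE 0.10, edgeR adjusted p = 2.15e-09). It remained higher by library totals (log2 fold change 0.72) and on log2(TPM + 1) (0.65), against the shifted medians given above. With ApoA-I present, the rise over ApoA-I was 1.70-fold (95% interval 1.46 to 1.97; 51.3 ± 5.56 CPM with both agents and 30.2 ± 4.24 CPM with ApoA-I alone, SD, n = 4 each; 0.76 log2 units with SE 0.10, edgeR adjusted p = 1.06e-06). Over Control it was 1.59-fold (log2 fold change 0.67, SE 0.10, edgeR adjusted p = 5.18e-06). Both passed at lower values by library totals (0.47 over ApoA-I and 0.44 over Control) and on log2(TPM + 1) (0.39 and 0.37).

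Against LPS alone, Ptgs1 fell by 0.43 log2 units in LPS+ApoA-I (SE 0.10, edgeR adjusted p = 0.00112), which left 74.4% of the LPS level (95% interval 64.4% to 85.9%). This call depended on the scaling and on the scale. By library totals the change was -0.28 and only just passed (edgeR adjusted p = 0.04975). On log2(TPM + 1) it was also -0.28, with a limma adjusted p of 0.0903. TPM values overlapped, with 24.3 to 31.5 TPM in LPS+ApoA-I and 29.5 to 40.0 TPM in LPS libraries. Without LPS the change was -0.09 log2 units in ApoA-I against Control (95% interval -0.31 to 0.13, edgeR adjusted p = 0.708). The order of Ptgs1 levels was LPS, LPS+ApoA-I, and then Control and ApoA-I, which did not differ beyond their spread by this test.

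**Figure D2:**
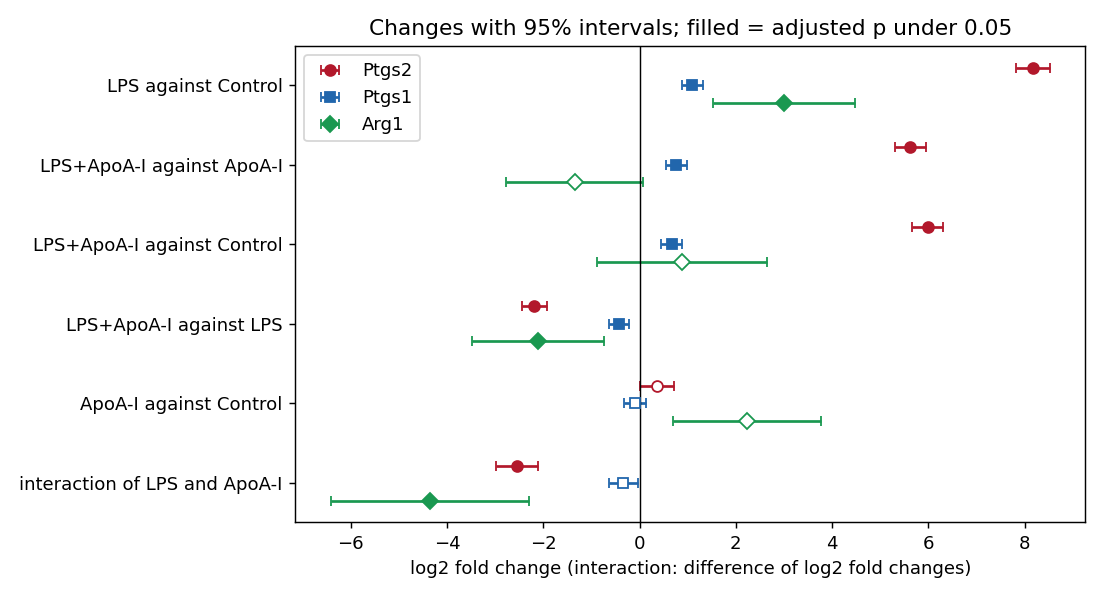
Log2 fold changes of Ptgs2, Ptgs1 and Arg1 in 5 comparisons and their interaction, from edgeR, with 95% intervals; filled symbols passed an adjusted p of 0.05. The changes of Ptgs2 in LPS against Control (8.17) and in LPS+ApoA-I against ApoA-I (5.63) are far larger than those of Ptgs1 (1.10 and 0.76), and the Arg1 intervals are wide.

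The makeup of the cyclooxygenase transcripts turned over with LPS. In libraries without LPS most of the summed Ptgs2 and Ptgs1 TPM was Ptgs1, and in libraries with LPS most was Ptgs2, also when ApoA-I was present. The Ptgs2 share of this sum was 88.2%, 88.1%, 82.9% and 86.3% in the LPS+ApoA-I libraries, against 95.6%, 96.0%, 95.7% and 94.9% in the LPS libraries. It was 18.2%, 22.3%, 12.9% and 18.5% in the ApoA-I libraries, against 10.3%, 16.9%, 10.96% and 17.8% in the Control libraries. Since the share is taken within a library, the scaling between libraries does not enter it.

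The share was 81.6 percentage points higher in LPS than in Control libraries (95.6% ± 0.446 and 14.0% ± 3.92, SD, n = 4 each), and 68.4 points higher in LPS+ApoA-I than in ApoA-I libraries (86.4% ± 2.51 and 17.97% ± 3.87). It was 9.20 points lower in LPS+ApoA-I than in LPS libraries, with no overlap. Each of these differences had a two-sided exact permutation p of 0.0286, the smallest that 4 against 4 allows, and 0.0357 after Benjamini-Hochberg adjustment over 5 comparisons. ApoA-I and Control libraries differed by 3.96 points and overlapped (exact permutation p = 0.143, adjusted 0.143). As a ratio, Ptgs2 stood at 6.51 ± 1.25 times Ptgs1 in LPS+ApoA-I and 21.7 ± 2.17 times in LPS libraries, and at 0.221 ± 0.0571 times in ApoA-I and 0.165 ± 0.0531 times in Control libraries (TPM, SD, n = 4 each). The summed TPM of both genes was 200.0 ± 11.1 in LPS+ApoA-I, 745.1 ± 48.2 in LPS, 25.02 ± 4.70 in ApoA-I and 24.2 ± 3.56 in Control libraries (SD, n = 4 each).

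**Figure D3:**
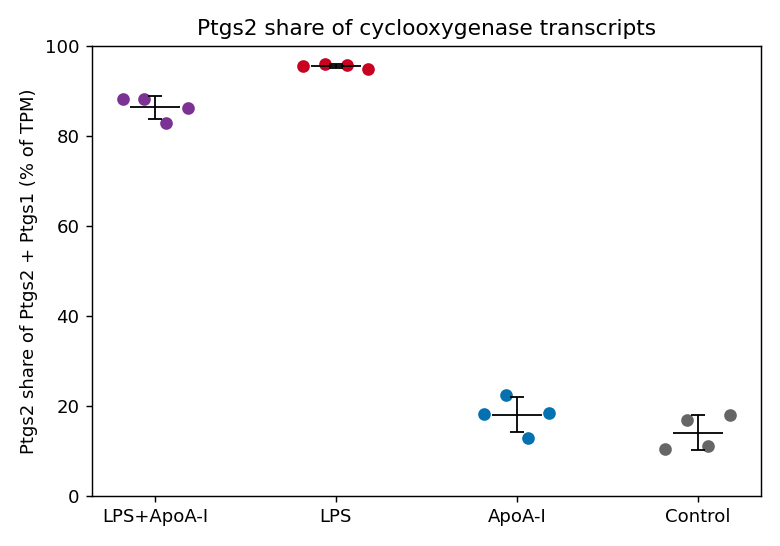
Ptgs2 as a percentage of the summed TPM of Ptgs2 and Ptgs1 in each library of the 4 groups; points are libraries, lines are means and bars are SD. LPS libraries lie at 94.9% to 96.0%, LPS+ApoA-I libraries at 82.9% to 88.2%, and libraries without LPS at or under 22.3%.

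Arg1 was near the limit of detection, with no more than 32 counts in any library, and it passed the filter on low counts only because of the LPS libraries. Its changes in LPS against Control and in LPS+ApoA-I against LPS, and its interaction, are therefore also given from the fit to all genes with at least 1 count. Its other tests are quoted with the filter only. The LPS+ApoA-I libraries held 3, 2, 11 and 5 counts, against 13, 16, 17 and 32 counts in the LPS libraries. The ApoA-I libraries held 5, 2, 23 and 28 counts, against 1, 3, 1 and 8 counts in the Control libraries. The LPS libraries lay above all LPS+ApoA-I and all Control libraries in CPM as well, while the ApoA-I libraries fell into 2 low and 2 high ones that spanned most of the range of the other groups.

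Arg1 rose in LPS against Control (1.67 ± 0.678 CPM in LPS and 0.205 ± 0.209 CPM in Control libraries, SD, n = 4 each; 2.997 log2 units with SE 0.71, edgeR adjusted p = 6.80e-04). Without the filter the change was 2.98 log2 units (edgeR adjusted p = 2.05e-04). It ranged from 2.67 to 3.91 with 1 library left out, the highest without Control replicate 4, and was 1.05 on log2(TPM + 1). The 78 counts over all LPS libraries have an exact 95% Poisson interval of 61.7 to 97.4, and the 13 over all Control libraries one of 6.92 to 22.2; these cover counting error only. Arg1 fell by 2.11 log2 units in LPS+ApoA-I against LPS (0.382 ± 0.296 CPM in LPS+ApoA-I libraries, SD, n = 4; SE 0.66, edgeR adjusted p = 0.0107), with a change of -2.10 without the filter (edgeR adjusted p = 0.00760). The change ranged from -2.76, without LPS+ApoA-I replicate 3, to -1.79, without LPS replicate 4, where the adjusted p reached 0.0448, and was -0.90 on log2(TPM + 1). The difference between LPS+ApoA-I and Control did not pass the test (log2 fold change 0.89, 95% interval -0.88 to 2.66, edgeR adjusted p = 0.363); its value ranged from 0.24, without LPS+ApoA-I replicate 3, to 1.801, without Control replicate 4, and was 0.15 on log2(TPM + 1).

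In ApoA-I against Control, Arg1 differed by 2.23 log2 units (95% interval 0.70 to 3.76; 0.975 ± 0.876 CPM in ApoA-I libraries, SD, n = 4), which did not pass the test (unadjusted p = 0.00632, edgeR adjusted p = 0.0884), and the groups overlapped. The adjusted p was 0.0305 without Control replicate 4 and 0.0339 without ApoA-I replicate 2. LPS+ApoA-I against ApoA-I gave -1.35 log2 units (95% interval -2.77 to 0.07, edgeR adjusted p = 0.0848); the adjusted p was 0.0323 without LPS+ApoA-I replicate 3, 0.0387 without ApoA-I replicate 1 and 0.0223 without ApoA-I replicate 2. The order of mean Arg1 levels was LPS, ApoA-I, LPS+ApoA-I and Control; no neighbours in that order passed the test, LPS against ApoA-I included, in which 73.5% of genes were called (edgeR adjusted p = 0.236, 0.0848 and 0.363 from the top).

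A group of 8 abundant genes that varied together within groups moved with some of these values. They held 1.61% to 12.8% of the counts of a library, with 2.08% in LPS replicate 4 against 10.2% to 11.96% in the other LPS libraries, and 9.43% in ApoA-I replicate 2 against 1.61% to 2.66% in the other ApoA-I libraries. LPS replicate 4 had the highest Arg1 and Ptgs1 of all libraries. The match was partial: ApoA-I replicate 1 held 1.92% but 5 Arg1 counts, against 23 and 28 counts in ApoA-I replicates 3 and 4. LPS+ApoA-I replicate 2 held the lowest share of its group, 6.81%, and also the lowest Arg1, with 2 counts. Control replicate 2 held the lowest share of its group, 4.05%, but 3 Arg1 counts, against 8 in Control replicate 4. The share of the 8 genes also differed between groups, with 4.05% to 11.9% in Control libraries. The covariate and the ApoA-I treatment therefore cannot be fully told apart. With the log2 share of these genes as a covariate, the Arg1 change was 1.34 log2 units in ApoA-I against Control (edgeR adjusted p = 0.467) and -0.23 in LPS+ApoA-I against ApoA-I (0.819), while the Arg1 change in LPS against Control was 2.90 (4.44e-04) and the Ptgs1 change in LPS+ApoA-I against LPS was -0.39 (0.00149).

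The interaction set the change with ApoA-I under LPS against the change without LPS; 41.0% of tested genes were called. It passed the test for Ptgs2, with -2.54 log2 units (SE 0.21, 95% interval -2.97 to -2.11, edgeR adjusted p = 2.14e-09): the change with ApoA-I was -2.18 log2 units under LPS and 0.36 without it. For Arg1 it was -4.34 log2 units (SE 0.99, 95% interval -6.40 to -2.29, edgeR adjusted p = 0.00126), with changes of -2.11 under LPS and 2.23 without it; it was -4.32 without the filter (edgeR adjusted p = 3.27e-04), -5.26 without Control replicate 4, -4.99 without LPS+ApoA-I replicate 3 and -3.13 with the covariate above (edgeR adjusted p = 0.0274). The Arg1 value was -1.65 on log2(TPM + 1), which understates changes of low genes, and still passed (limma adjusted p = 0.00537). For Ptgs1 the value was -0.34 (SE 0.15, 95% interval -0.64 to -0.03) and did not pass (edgeR adjusted p = 0.0704). Counted from the lowest interaction value of all tested genes, Ptgs2 ranked 119 and Arg1 ranked 23, against a median of 0.04.

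**Figure D4:**
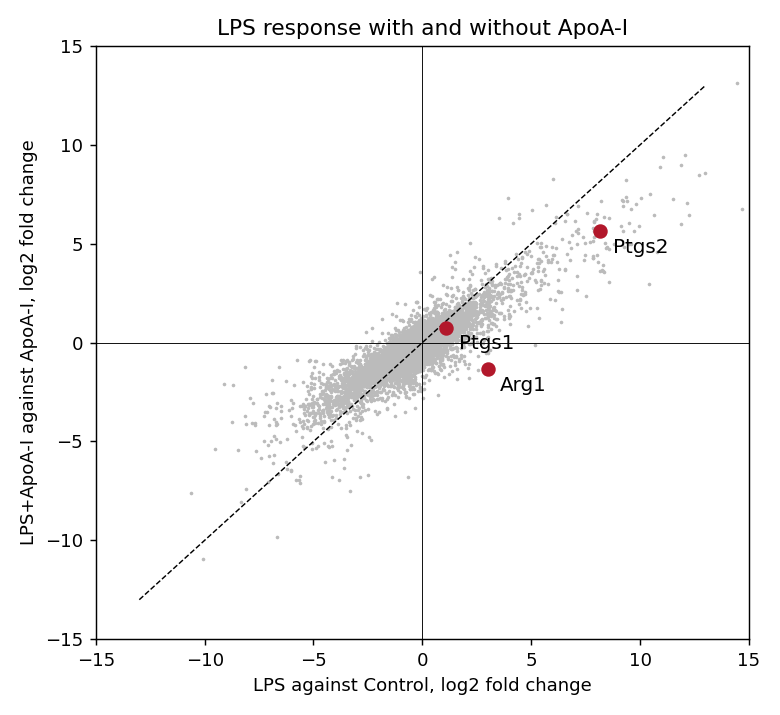
Log2 fold change in LPS+ApoA-I against ApoA-I (vertical) plotted against LPS against Control (horizontal) for 11902 tested genes in grey, with Ptgs2, Ptgs1 and Arg1 in red; the dashed line marks equal changes and the axes share no library. Ptgs2 (8.17 and 5.63) and Ptgs1 (1.10 and 0.76) lie below the line on the side of higher levels, and Arg1 (2.997 and -1.35) lies below 0 on the vertical axis.

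The tested genes whose log2 CPM followed each enzyme most closely over the 16 libraries are known here by identifier only. Among 9344 candidates averaging 5 CPM or more, Ptgs2 was followed most closely by ENSRNOG00000000827 (Pearson's r = 0.998), which had 396.5 ± 20.4 CPM in LPS+ApoA-I, 729.3 ± 26.03 in LPS, 92.8 ± 10.7 in ApoA-I and 90.3 ± 5.60 in Control libraries (SD, n = 4 each). Such a pattern was common, as 1013 genes had an r over 0.95 with Ptgs2. Ptgs1 was followed most closely by ENSRNOG00000023202 (r = 0.975; 98 genes over 0.95). No gene reached 0.95 with Arg1, where the closest was ENSRNOG00000020182 (r = 0.867). These correlations describe libraries that share 4 group levels and one scaling.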

How the data were processed

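Per the labels' protocols, RNA came from column extraction and library preparation was done by a company. The authors deposited estimated counts and TPM per gene. The submitters' processing notes name RSEM 1.3.1, STAR 2.7.10b and cutadapt 1.8.1 in no stated order, and the mouse build mm10, although the 30560 identifiers are those of Ensembl rat genes. The annotation behind them is not stated in the sources here, and its effect on single genes could not be checked.

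Of all deposited counts, 3.245% were not whole (tolerance 0.005), but none of those of Ptgs2, Ptgs1 and Arg1. Counts were rounded and genes kept by filterByExpr (minimum count 10). All 16 libraries were fitted together by group with TMM scaling and the quasi-likelihood test of edgeR 4.0.16 (R 4.3.3; 12 residual degrees of freedom), with Benjamini-Hochberg adjustment over all tested genes and calls under 0.05. An SE is the size of the log2 change over the root of F. Alternatives used DESeq2 1.42.0 and limma 3.58.1. Shares were compared by exact permutation (Python 3.11.15). Log2 CPM used a prior count of 2. The fit was also run on simulated data in which a small part of the genes, all averaging 5 CPM or more, was changed. That setting covers neither the level of Arg1 nor changes in most genes, and no result here rests on it.

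The members, lists and tests were chosen with earlier results of these data known. Members were always named; the closest gene to each was named by its correlation. Planned lists of pathway genes and markers, and the share of Nos2 in Nos2 and Arg1, could not be used. Replicates differed beyond counting error (chi-square of 3.10 to 92.3 per degree of freedom), so no pair was merged. LPS replicate 4 gave 75.6 to 92.3 against the other LPS libraries, which gave 3.92 to 5.14 among themselves. ApoA-I replicate 2 gave 53.5 to 70.7 against the other ApoA-I libraries, which gave 8.23 to 12.1 among themselves.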

Additional observations from a re-analysis of the deposited data

Results flagged for a closer look

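For Ptgs2 the change with ApoA-I was not the same under LPS as without it, by an interaction of -2.54 log2 units (edgeR adjusted p = 2.14e-09). In this test 41.0% of all tested genes were called. Ptgs2 was lower in 4 of 4 LPS+ApoA-I libraries than in every LPS library, while ApoA-I and Control libraries overlapped. How many of all genes separate in this way was not counted.

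Arg1 had an interaction of -4.34 log2 units (edgeR adjusted p = 0.00126; -4.32 and 3.27e-04 without the filter on low counts, which it passed only because of the LPS libraries), with 2 to 11 counts in LPS+ApoA-I and 1 to 8 in Control libraries; it lay between -5.26 and -3.79 over the fits that left out 1 library. Over all alternatives it ran from -5.26 to -1.65. The ApoA-I libraries held 2 to 28 counts, and their change against Control, 2.23 log2 units, did not itself pass (edgeR adjusted p = 0.0884).

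None of 16 sets of 4 libraries (CPM of the 3 genes and the Ptgs2 share, in each group) had a library that stood apart by Dixon's 95% criterion, which chance would pass in about 1 set in 20.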

How the results depend on the processing

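For Ptgs2, each comparison kept its direction and its side of the threshold under all alternatives, as did the differences of the Ptgs2 share. No alternative reversed a result. The Ptgs1 change in LPS+ApoA-I against LPS no longer passed on log2(TPM + 1), at -0.28, or log2(TPM + 0.1), at -0.29. By library totals it only just passed, at -0.28 (edgeR adjusted p = 0.04975). The cause was not tested. The Ptgs1 interaction passed with DESeq2, at -0.36, and ranged from -0.42 to -0.23 with 1 library left out, passing without LPS+ApoA-I replicate 3, ApoA-I replicate 2 or Control replicate 1. For Arg1, LPS+ApoA-I against ApoA-I passed by library totals, at -1.64, and ranged from -1.99 to -0.80 with 1 library left out; ApoA-I against Control ranged from 1.68 to 3.15, and LPS against ApoA-I passed with the log2 share of the 8 genes as a covariate, at 1.57. A minimum count of 50 removed Arg1. Genes called in ApoA-I against Control were 508, but 806 with DESeq2, 310 on log2(TPM + 1), 238 on log2(TPM + 0.1), 90 with only those libraries fitted, 224 with the covariate, and 186 to 781 with 1 library left out (186 without ApoA-I replicate 1; 285, 325, 202 and 781 without Control replicates 1, 2, 3 and 4). The replicate numbers did not pair the libraries: 3 of 24 same-numbered pairs deviated together with a correlation over 0.1 (range -0.18 to 0.18), and 5 of 16 libraries correlated best with their own number. With the replicate block the log2 changes in LPS against Control were 3.11 for Arg1 and 1.10 for Ptgs1, it gave 469 calls in ApoA-I against Control, and no call on the 3 genes changed. Depth limits Arg1, where single libraries held 1 to 32 counts.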
